A study of Mus musculus with 6 samples.

Results

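Itln1, Cd177, Crisp3 and Vsig1 encode 4 proteins that are secreted or carried on the cell surface, and they are described here in RNA-seq libraries of the epithelial fraction of the mouse colon. They were chosen by their measured fold changes in the same libraries, as those with the largest rises in knockout among secreted or surface proteins, so their difference between genotypes is given as a description and without a test. All 4 were found among 46078 gene identifiers of the count table, and all 4 were among the 16856 genes that passed the filter on low counts. Of the 6 libraries tested, 3 came from mice homozygous for a Lingo3 knockout (Lingo3-/-) and the other 3 from wild type mice. All 6 came from colon at 2 months of age, from mice kept without treatment. Lingo3 codes for a membrane protein whose outer part carries leucine-rich repeats. Nothing in the labels names a Cre or a cell type for the deletion, nor the deleted part of the gene, and they do not say whether each library came from its own animal. The p-values below therefore measure the spread between these libraries. The shared protocol names EDTA and DTT for the wash that released the cells, but the label of wild type replicate 1 names both while the other 5 labels name EDTA alone.

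The lining of the colon is covered by mucus, and the cells beneath it release lectins and other proteins into that layer. Itln1 encodes intelectin 1, a secreted lectin that binds glycans on microbial surfaces and is made in the gut by goblet and Paneth cells. Crisp3 encodes a cysteine-rich secretory protein of the CAP superfamily, known in humans from exocrine secretions and neutrophil granules. Cd177 encodes a surface glycoprotein of the Ly6/uPAR family, tethered by a lipid anchor and best known from neutrophils, where human CD177 presents proteinase 3. Vsig1 encodes a junctional membrane protein with immunoglobulin domains, best known from the epithelium of the glandular stomach.

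The promoter windows of the 4 genes are shown as the sequence immediately around each annotated start. The shared rise of the genes follows from how they were chosen and says nothing of these windows. Each runs 5′ to 3′ on the gene's own strand from 250 bases before the start to 50 bases after it, as given by RefSeq for GRCm38.p6. The windows are chr1:171535245-171535544 (minus strand) for Itln1, chr7:24760262-24760561 (minus strand) for Cd177, chr17:40242239-40242538 (minus strand) for Crisp3 and chrX:140907358-140907657 (plus strand) for Vsig1. Capitals mark matches to a set of short motifs, each searched on both strands and spelled out after the sequences.
Itln1: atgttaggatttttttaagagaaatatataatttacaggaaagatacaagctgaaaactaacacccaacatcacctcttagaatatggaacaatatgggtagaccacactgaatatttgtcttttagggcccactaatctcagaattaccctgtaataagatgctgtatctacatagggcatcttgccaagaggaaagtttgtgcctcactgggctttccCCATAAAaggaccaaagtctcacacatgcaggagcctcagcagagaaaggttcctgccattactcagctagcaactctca
Cd177: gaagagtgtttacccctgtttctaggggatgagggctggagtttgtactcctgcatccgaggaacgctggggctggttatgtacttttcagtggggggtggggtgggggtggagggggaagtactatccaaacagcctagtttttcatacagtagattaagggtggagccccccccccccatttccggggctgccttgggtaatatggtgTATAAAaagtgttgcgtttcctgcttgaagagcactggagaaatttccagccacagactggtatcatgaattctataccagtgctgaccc
Crisp3: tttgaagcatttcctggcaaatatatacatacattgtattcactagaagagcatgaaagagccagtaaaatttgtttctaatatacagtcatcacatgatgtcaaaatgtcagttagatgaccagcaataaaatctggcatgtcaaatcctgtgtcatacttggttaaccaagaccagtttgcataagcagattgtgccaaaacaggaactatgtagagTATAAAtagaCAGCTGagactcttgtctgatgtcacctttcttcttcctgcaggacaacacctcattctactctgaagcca
Vsig1: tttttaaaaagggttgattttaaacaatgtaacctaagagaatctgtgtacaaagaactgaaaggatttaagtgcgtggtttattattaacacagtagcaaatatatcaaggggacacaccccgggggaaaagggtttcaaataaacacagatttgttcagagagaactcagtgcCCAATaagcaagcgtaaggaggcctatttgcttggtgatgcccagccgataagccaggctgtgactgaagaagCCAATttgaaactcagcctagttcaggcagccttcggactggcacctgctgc
Cd177 and Crisp3 each held a TATA box (TATAAA), at -40 to -35 and at -31 to -26 from the start, and 13.6% of the 32851 windows in the RefSeq table hold it. Crisp3 also held CAGCTG, a form of the E-box, at -21 to -16, which 16.3% of all windows hold. Other E-box forms were not searched. In the Itln1 window the core recognised by Cdx homeodomain factors (TTTATGG) lay on the opposite strand at -30 to -24, and 2.75% of all windows hold that motif. The Itln1 sequence shows its reverse complement, CCATAAA, in capitals. Vsig1 held the letters CCAAT at -75 to -71 and again at -2 to 3, a motif present in 37.4% of all windows. None of the motifs searched was shared by all 4 windows, and a GC box (GGGCGG, 35.7% of all windows) and a GATA core (AGATAA, 11.2%) matched in none of them. The windows of Crisp3 (37.7% G and C), Itln1 (40.3%) and Vsig1 (43.3%) lay below the lower quartile of all windows (45.7%), and that of Cd177 (51.7%) lay near their median (52.7%). A match describes these letters only.

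Counts over genes ran from 11868000 to 17200931 in Lingo3-/- libraries and from 25010618 to 28029583 in wild type libraries, so a floor of 3 counts stood at 0.154 to 0.240 CPM in Lingo3-/- and at 0.113 to 0.140 CPM in wild type, where CPM is the count scaled to the effective library size. Lingo3 itself (chr10:80832801-80844039) had 2, 0 and 1 counts in Lingo3-/- libraries and 3, 3 and 1 counts in wild type libraries, too few to check the labels. Mitochondrial transcripts held 35.5% ± 0.823 of counts in Lingo3-/- and 46.8% ± 1.60 in wild type (SD, n = 3 each). Summed levels of the 9 epithelial markers were 6110 to 7512 CPM in Lingo3-/- and 5244 to 6241 CPM in wild type, and those of the 13 T cell markers were 164 to 270 CPM in Lingo3-/- and 414 to 494 CPM in wild type. Summed levels of the 9 matched hindgut position genes were 322 to 397 CPM in Lingo3-/- and 269 to 333 CPM in wild type. Of the 13 T cell markers 11 fell, and of the 8 B cell and plasma cell markers 4 fell, with sums of 22.7 to 32.1 CPM in Lingo3-/- and 49.4 to 102 CPM in wild type; without Lingo3-/- replicate 2 or 3, 1 of the 8 fell. Calls rest on edgeR's quasi-likelihood test with a Benjamini-Hochberg adjusted p under 0.05, by which 2596 of 16856 genes (15.4%) differed, 1589 (9.43%) higher and 1007 (5.97%) lower. With upper-quartile factors that split was 1137 higher and 1365 lower, and with library totals alone it was 5415 higher and 420 lower, with a median log2 fold change of all genes of 0.26 in place of -0.025.

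Itln1 lies on chromosome 1 (chr1:171518122-171535294, minus strand, GRCm38) and has 8 exons and a coding region of 313 codons. It had 12.2, 23.3 and 17.4 CPM in the Lingo3-/- libraries and 4.44, 4.86 and 4.94 CPM in the wild type libraries. Every Lingo3-/- library lay above every wild type library, the wild type libraries were nearly level, and the Lingo3-/- libraries were spread. The mean was 17.6 ± 5.60 CPM in Lingo3-/- and 4.75 ± 0.270 CPM in wild type (SD, n = 3 each), and on the log2 CPM scale the SD was 0.47 in Lingo3-/- and 0.081 in wild type. The fitted log2 fold change was 1.89 ± 0.22 (SE), and it ran from 1.63 without Lingo3-/- replicate 2 to 2.11 without Lingo3-/- replicate 1. In a bulk fraction such as this one, more cells of a type and more RNA per cell cannot be told apart, nor can fewer cells and less RNA.

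Crisp3 lies on chromosome 17 (chr17:40221777-40242288, minus strand), has a single annotated transcript of 8 exons, and encodes 241 amino acids. It had 7.72, 5.68 and 5.76 CPM in Lingo3-/- libraries and 3.32, 2.00 and 1.82 CPM in wild type libraries. The groups did not overlap, and replicate 1 was the highest library of each genotype. Counts were low, at 150, 107 and 72 in Lingo3-/- and 71, 53 and 42 in wild type. The mean was 6.39 ± 1.16 CPM in Lingo3-/- and 2.38 ± 0.819 CPM in wild type (SD, n = 3 each), a fitted log2 fold change of 1.44 ± 0.25 (SE).

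Cd177 lies on chromosome 7 (chr7:24743983-24760311, minus strand), with 17 exons and 817 codons, and was the most abundant of the 4 transcripts per exon length. It had 196, 223 and 261 CPM in Lingo3-/- libraries and 76.6, 72.9 and 46.9 CPM in wild type libraries. The lowest Lingo3-/- library held 2.56 times the level of the highest wild type library, the widest gap among the 4 genes. Its counts, between 3268 and 4198 in Lingo3-/- and between 1081 and 1933 in wild type, were also the largest. The mean was 227 ± 32.7 CPM in Lingo3-/- and 65.5 ± 16.2 CPM in wild type (SD, n = 3 each), and the fitted log2 fold change was 1.79 ± 0.19 (SE).

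Vsig1 lies on the X chromosome (chrX:140907608-140939472, plus strand), with 7 exons and 407 codons. It had 1.91, 3.98 and 3.60 CPM in Lingo3-/- libraries and 1.64, 0.754 and 0.998 CPM in wild type libraries. The groups did not overlap, but the lowest Lingo3-/- library was only 1.16 times the highest wild type library. The counts were 37, 75 and 45 in Lingo3-/- and 35, 20 and 23 in wild type. For replicate 1 of the 2 genotypes the 95% exact Poisson intervals, which cover counting error only, were 1.34 to 2.63 CPM in Lingo3-/- and 1.14 to 2.28 CPM in wild type, and they overlapped. The mean was 3.16 ± 1.10 CPM in Lingo3-/- and 1.13 ± 0.456 CPM in wild type (SD, n = 3 each), with a fitted log2 fold change of 1.49 ± 0.35 (SE).

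**Figure D1:**
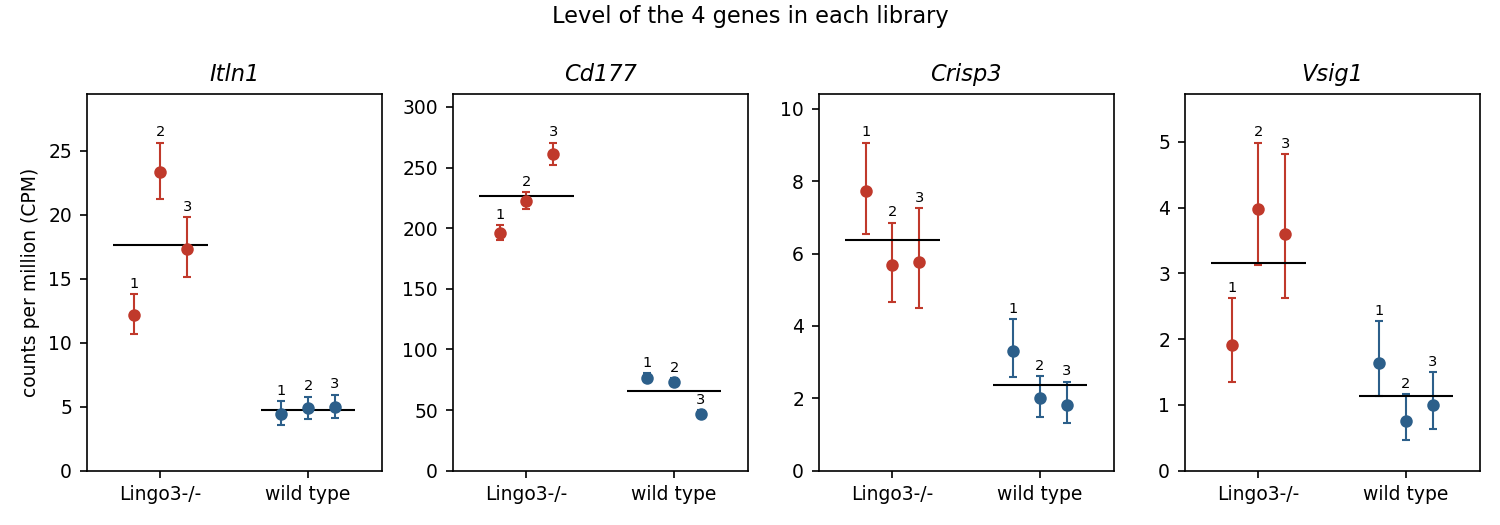
Level of the 4 genes in each library in CPM, Lingo3-/- left of wild type, with numbers for the replicate, a line at the group mean and bars for the 95% exact Poisson interval of the count. Every Lingo3-/- point lies above every wild type point, narrowly so for Vsig1, where 1.91 CPM in Lingo3-/- replicate 1 faces 1.64 CPM in wild type replicate 1.

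Non-overlap with Lingo3-/- higher, which held for all 4 genes because they were chosen for their rise, was found for 19.7% of all genes tested. Per kilobase of exon, which allows levels of different genes to be set side by side, the order was Cd177, Itln1, Crisp3, Vsig1 in every library. Cd177 averaged 79.9 ± 11.5 CPM per kb in Lingo3-/- and 23.0 ± 5.70 CPM per kb in wild type (SD, n = 3 each), above 97.8% and 93.1% of genes tested in those groups. Itln1 averaged 15.4 ± 4.91 CPM per kb in Lingo3-/- and 4.16 ± 0.236 CPM per kb in wild type. Crisp3 averaged 4.51 ± 0.818 CPM per kb in Lingo3-/- and 1.68 ± 0.578 CPM per kb in wild type. Vsig1 was the lowest, at 1.14 ± 0.399 CPM per kb in Lingo3-/- and 0.408 ± 0.165 CPM per kb in wild type, above 30.7% and 11.5% of genes tested.

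The libraries did not rank alike for the 4 genes. Among Lingo3-/- libraries Itln1 and Vsig1 were lowest in replicate 1 and highest in replicate 2, Cd177 was lowest in replicate 1 and highest in replicate 3, and Crisp3 was highest in replicate 1. Among wild type libraries replicate 1, whose label names DTT, was highest for Cd177, Crisp3 and Vsig1 and lowest for Itln1. Without wild type replicate 1 the fitted log2 fold changes were 1.94 for Cd177, 1.76 for Crisp3, 1.86 for Vsig1 and 1.87 for Itln1. Over 15 alternative settings the fold change ran from 1.63 to 2.17 for Itln1, from 1.62 to 2.07 for Cd177, from 1.28 to 1.76 for Crisp3 and from 1.27 to 1.86 for Vsig1. In the authors' deposited table, sorted by log2 fold change among 1514 genes with a deposited adjusted p under 0.05 and a positive fold change, Itln1 stood at rank 6 (1.91 ± 0.22, SE), Cd177 at rank 8 (1.81 ± 0.17), Vsig1 at rank 15 (1.51 ± 0.38) and Crisp3 at rank 19 (1.45 ± 0.27). Sorted by the Wald statistic of the same table, Cd177 stood at rank 1 of 15138 genes, Itln1 at rank 5, Crisp3 at rank 133 and Vsig1 at rank 497. Both sets of ranks restate the rise for which the genes were chosen and are no test of it.

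**Figure D2:**
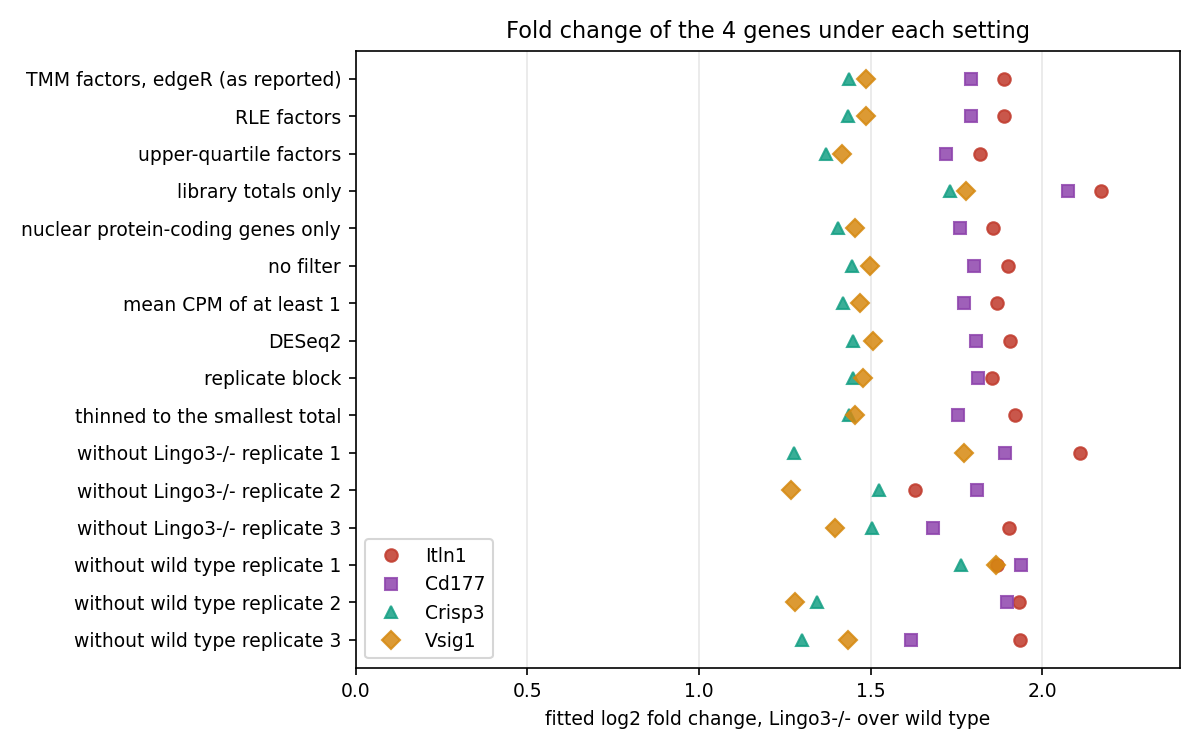
Fitted log2 fold change, Lingo3-/- over wild type, of the 4 genes in the reported fit and under each alternative setting. Vsig1 runs from 1.27 to 1.86, and no gene changes sign under any setting shown. All settings use the counts from which the genes were chosen.

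Reads from similar transcripts could reach a member, so each was aligned with the others of the annotation. Crisp1, an epididymal protein of the same family, matched Crisp3 at 88.6% identity over 1436 bases and had 7 counts in all 6 libraries together, and Crisp2 had 3 counts. The predicted gene Gm9765 matched Itln1 at 92.8% over 320 bases and had 2 counts. The intelectin gene Itlnb was not matched to a gene of the count table, so reads from it could not be checked. BC049730 and Gm4763 matched Cd177 at 95.6% over 275 bases and 96.0% over 303 bases, and both had 0 counts. Vsig1 had no similar transcript, and no annotated gene overlapped any of the 4 loci.

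The genes whose profile over the 6 libraries lay nearest each member were named by the root mean square (RMS) distance of log2 CPM after centring, over 12690 protein-coding genes with a mean of at least 1 CPM. This distance is a description, since any gene with a similar rise lies near. Nearest to Itln1 was Ascl2, a transcription factor of intestinal stem cells, at an RMS distance of 0.19, followed by Cdo1, a cysteine dioxygenase (0.30), and Nox1, an oxidase of the colonic epithelium (0.32). Cd177 was nearest to Acot1, an acyl-CoA thioesterase (0.24), Cdo1 (0.26) and Iigp1, an interferon-inducible GTPase (0.27). Crisp3 was nearest to the collagen gene Col8a1 (0.17), to Clca1, a secreted protease of goblet cell mucus (0.23), and to the water channel Aqp4 (0.25). Vsig1 was nearest to the carbonyl reductase gene Cbr2 (0.24), Bnipl (0.24) and Aqp4 (0.25). Among the members, Itln1 and Cd177 were closest to each other (0.35) and Itln1 and Crisp3 farthest apart (0.55).

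Most relatives of the 4 proteins did not pass the test. Of 70 listed genes 45 passed the filter, and of these 3 were higher, 2 were lower and 40 did not pass the test. Their median log2 fold change was 0.0053 against -0.025 over all genes, and the background of calls was 9.43% higher and 5.97% lower. With library totals alone 10 of the 45 relatives were higher and 2 lower. None was higher without Lingo3-/- replicate 1 or 3, against 1 without wild type replicate 2 or 3. For Itln1 the 10 tested genes were lectins of other kinds, such as galectins and Reg proteins, and none was an intelectin. None of these 10 lectins changed at an adjusted p under 0.05. Lgals4, a galectin of intestinal epithelium, had a log2 fold change of 0.21 (adjusted p = 0.362 by edgeR) and Zg16, a lectin of goblet cell granules, 0.012 (adjusted p = 0.982 by edgeR). Without wild type replicate 2, 1 of the 10 lectins was higher. Reg4, a secreted lectin-like protein named here after its values were seen, had 64.0, 317 and 113 CPM in Lingo3-/- and 61.7, 53.4 and 59.2 CPM in wild type (log2 fold change 1.51, adjusted p = 0.205 by edgeR). Itlnb, the only intelectin listed, and Lypd8l were not matched and are not analysed here.

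Of 26 Ly6/uPAR relatives of Cd177 in the annotation 13 were tested, and 2 were higher, where 9.43% of all genes tested were higher. Cd59a, an inhibitor of complement on cell surfaces, averaged 1.24 ± 0.297 CPM in Lingo3-/- and 0.505 ± 0.0329 CPM in wild type (SD, n = 3 each), a log2 fold change of 1.27 ± 0.34 (adjusted p = 0.0254 by edgeR). Ly6e, a lipid-anchored surface protein, averaged 127 ± 19.5 CPM in Lingo3-/- and 81.6 ± 17.3 CPM in wild type, a log2 fold change of 0.64 ± 0.17 (adjusted p = 0.0312 by edgeR). The calls of both lie near the threshold. Leaving out Lingo3-/- replicate 1 or 3, or any wild type library, ended the call of Cd59a (adjusted p up to 0.0852 by edgeR), with log2 fold changes of 1.17 to 1.47 over the 6 fits that each left out 1 library. Leaving out any Lingo3-/- library or wild type replicate 2 ended that of Ly6e (up to 0.0834 by edgeR), with log2 fold changes of 0.49 to 0.76. Lypd8, which keeps flagellated bacteria off the colonic epithelium, averaged 4597 CPM in Lingo3-/- and 5027 CPM in wild type (log2 fold change -0.13, adjusted p = 0.664 by edgeR), and Ly6a (Sca-1) had a log2 fold change of 0.44 (adjusted p = 0.367 by edgeR).

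Of 13 CAP superfamily relatives of Crisp3 only 4 were tested, none was higher, and Pi16 fell (log2 fold change -2.30 ± 0.51, adjusted p = 0.0126 by edgeR), a call lost without Lingo3-/- replicate 2 or 3 (adjusted p up to 0.0630 by edgeR). Glipr1 had a log2 fold change of -0.84 and Glipr2 of 0.15, and Crisp4, a sperm-maturation protein, had 1 count in all 6 libraries together. Of 19 junctional immunoglobulin relatives of Vsig1 18 were tested, with 1 higher and 1 lower. For both lists the background was 9.43% of all genes tested higher and 5.97% lower.

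Vsig2, another epithelial membrane protein with immunoglobulin domains, had 8.96, 6.31 and 7.20 CPM in Lingo3-/- and 5.24, 4.22 and 3.51 CPM in wild type. Every Lingo3-/- library lay above every wild type one, as for 19.7% of all genes tested. The log2 fold change of Vsig2 was 0.80 ± 0.20 (adjusted p = 0.0199 by edgeR). Leaving out Lingo3-/- replicate 1 or 3, or wild type replicate 2 or 3, ended that call (adjusted p up to 0.0632 by edgeR). Jaml, an adhesion protein of leukocytes that binds Cxadr, fell (-0.86 ± 0.16, adjusted p = 0.00514 by edgeR) and kept its call without any single library, beside the lower T cell markers given above. Their part in its fall was not tested. Cxadr, the coxsackievirus receptor of epithelial junctions, and Gpa33, a surface antigen of intestinal epithelium, had log2 fold changes of -0.12 and 0.038.

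**Figure D3:**
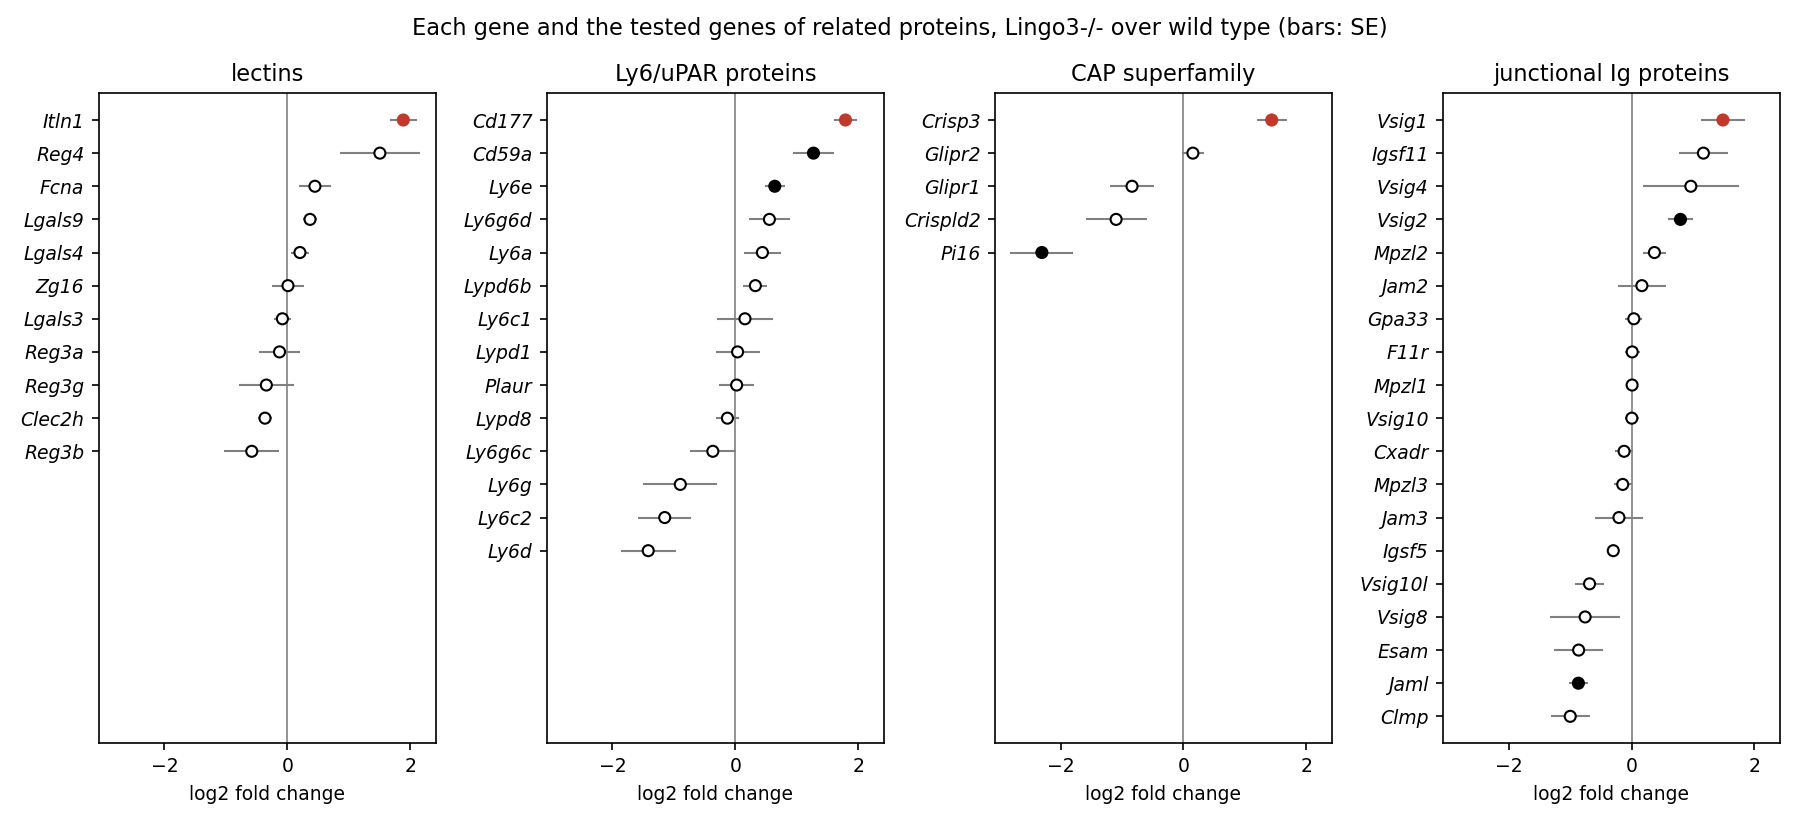
Log2 fold change, Lingo3-/- over wild type, of the tested relatives of each protein (points with SE), with the member for comparison. The lectins shown beside Itln1 include no other intelectin. Only Cd59a, Ly6e and Vsig2 among the relatives passed the test as higher, and 40 of the 45 relatives did not pass it.

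Binding partners known for these proteins were read as well, beside a background of 9.43% of all genes tested higher and 5.97% lower. Of 8 listed partners 4 passed the filter, none was higher, and Pecam1, the endothelial and leukocyte adhesion molecule bound by CD177 in humans, fell with a log2 fold change of -0.99 ± 0.21 (adjusted p = 0.0104 by edgeR, kept without any single library). It fell beside the lower T cell markers, and the 9 markers of fibroblasts, muscle and endothelium summed to 227 to 465 CPM in Lingo3-/- and 337 to 990 CPM in wild type. Of 8 tested markers of that list 1 fell, with a median log2 fold change of -1.24; 0 fell without Lingo3-/- replicate 2 or 3 or wild type replicate 1 or 2, and 3 fell without wild type replicate 3. The part of these cells in the fall of Pecam1 was not tested. Tjp1, the junction scaffold that binds Vsig1, had a log2 fold change of -0.13, and the leukocyte integrin subunit gene Itgb2 of -0.64. Prtn3, encoding proteinase 3, had 9 counts in all 6 libraries together, Msmb 1 and A1bg, whose human product binds CRISP3, 0.

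Around the 4 genes, the 3 nearest tested genes on each side were compared. Of these 24 neighbours 1 was higher (2 without Lingo3-/- replicate 1 or 3), 3 were lower and 20 did not pass the test. Log2 fold changes ran from -1.38 to 0.57 among those 20. Over all genes tested 9.43% were higher and 5.97% lower. The neighbour that was higher was Ceacam10 (chr7:24777206-24784657), a member of the carcinoembryonic antigen family whose start lies 16.9 kb from that of Cd177 and points the other way. It had 48.2, 57.1 and 67.5 CPM in Lingo3-/- and 29.3, 31.8 and 25.7 CPM in wild type, with no overlap. Non-overlap with Lingo3-/- higher was found for 19.7% of all genes tested. The log2 fold change of Ceacam10 was 0.99 ± 0.13 (adjusted p = 0.00155 by edgeR). Without any single library it stayed between 0.87 and 1.11 (adjusted p 0.00125 to 0.0126 by edgeR).

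The neighbours that fell were those of Itln1 and Crisp3. Near Itln1, Ly9 (-0.95 ± 0.24, adjusted p = 0.0213 by edgeR) and Slamf7 (-0.88 ± 0.24, adjusted p = 0.0320 by edgeR), both receptors of lymphocytes, fell beside the lower T cell and B cell markers. Their part in it was not tested. CT010467.1, annotated as a ribosomal RNA gene with its start 393 kb from that of Crisp3, fell (-0.77 ± 0.20, adjusted p = 0.0236 by edgeR) in libraries that were depleted of ribosomal RNA. The call of Ly9 was lost without Lingo3-/- replicate 2 or 3 or wild type replicate 2 or 3 (up to 0.0906 by edgeR), that of Slamf7 without Lingo3-/- replicate 2 or 3 or wild type replicate 1 or 2 (up to 0.119), and that of CT010467.1 without Lingo3-/- replicate 1 or 2 or wild type replicate 3 (up to 0.0875). Psmd10 and Atg4a, the nearest neighbours of Vsig1, had log2 fold changes of 0.019 and -0.020. With library totals alone 6 of the 24 neighbours were higher and 0 lower.

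**Figure D4:**
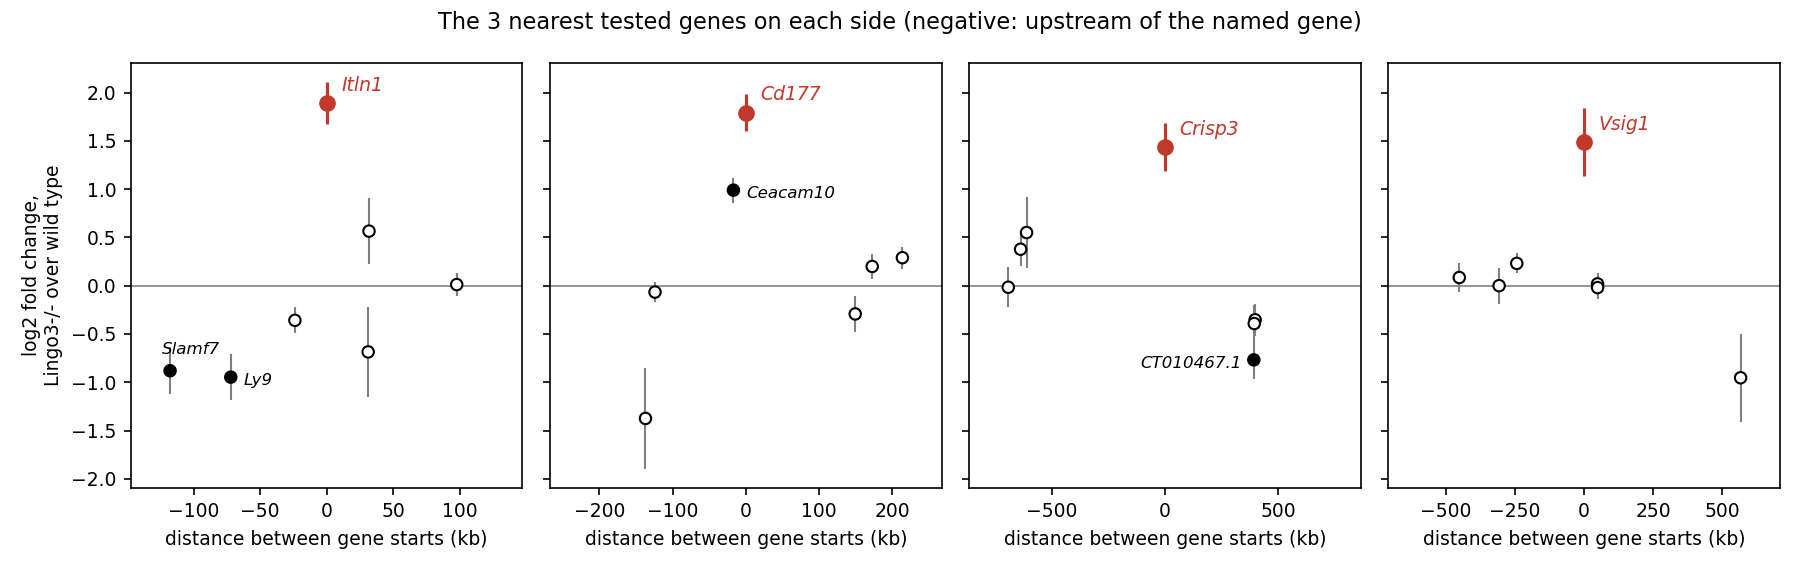
Log2 fold change, Lingo3-/- over wild type, with SE, of each gene and its 3 nearest tested genes per side against the distance between gene starts, with filled points for genes past the test. Ceacam10, 16.9 kb from Cd177, is the only neighbour higher in Lingo3-/-.

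Lists of cells and responses in which these proteins are known were set beside them. The lists were chosen with earlier results of these data known. Of 24 goblet cell genes 12 rose and none fell, with a median log2 fold change of 0.63. Over all genes tested 9.43% were higher and 5.97% lower, and the median was -0.025. Summed levels of the goblet cell genes were 20045 to 22205 CPM in Lingo3-/- and 14632 to 17540 CPM in wild type. Klk1, tissue kallikrein, had 482, 507 and 550 CPM in Lingo3-/- and 229, 211 and 174 CPM in wild type (log2 fold change 1.33 ± 0.13, adjusted p = 0.000785 by edgeR). Clca1 had 4321, 4792 and 3691 CPM in Lingo3-/- and 2854, 1436 and 1583 CPM in wild type (1.12 ± 0.25, adjusted p = 0.0163 by edgeR), a call lost without Lingo3-/- replicate 2 or wild type replicate 3 (up to 0.0560). The transcription factor genes Atoh1, which sets the secretory lineage, and Creb3l4 both rose by 0.92 on the log2 scale and kept their calls without any single library. Muc2, the gel-forming mucin, had a log2 fold change of 0.12 (adjusted p = 0.648 by edgeR). The count of goblet cell genes called higher was 9 to 13 without single libraries.

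Over all genes tested, as a background for the next lists, 9.43% were higher and 5.97% lower. Of 14 Paneth cell genes 6 were tested and none passed. Their summed level was 240 to 425 CPM in Lingo3-/- and 86.0 to 174 CPM in wild type, most of it from Ang4, and the other 13 genes summed to 20.2 to 25.3 CPM in Lingo3-/- and 12.4 to 24.6 CPM in wild type, which overlapped. Ang4, an antimicrobial ribonuclease, had 219, 402 and 293 CPM in Lingo3-/- and 162, 147 and 61.5 CPM in wild type (log2 fold change 1.30, adjusted p = 0.122 by edgeR, while DESeq2 called it higher); without wild type replicate 3, 2 genes of the list were higher. Of 14 tested genes of the interleukin 4 and 13 response 2 rose, Clca1 and Il13ra1 (0.53, adjusted p = 0.0129 by edgeR), and 2 fell, the receptor genes Il2rg (-1.56, adjusted p = 0.00214 by edgeR) and Il4ra (-0.40, adjusted p = 0.0240 by edgeR). Il2rg, the receptor chain that lymphocytes share among several interleukins, fell beside the lower T cell and B cell markers, whose part in it was not tested. The call of Il13ra1 was lost without Lingo3-/- replicate 3. That of Il4ra was lost without Lingo3-/- replicate 2 or 3 or wild type replicate 1 or 2. The summed level of the list was 8652 to 10134 CPM in Lingo3-/- and 4124 to 7495 CPM in wild type, with no overlap. Clca1 and Fcgbp, also on the goblet cell list, averaged 4268 and 4261 CPM in Lingo3-/- and 1958 and 2796 CPM in wild type. Retnlb of the same list, named here after its values were seen, was not called. Without single libraries its log2 fold change ran from 1.54 to 2.42 (adjusted p 0.0868 to 0.302 by edgeR). Of 21 gastric genes 7 were tested and 1 rose, Capn9, a calpain of stomach and gut (0.53, adjusted p = 0.0197 by edgeR), a call lost without Lingo3-/- replicate 2 or 3 or wild type replicate 2 or 3; without wild type replicate 1, 2 rose. Gastric genes summed to 117 to 124 CPM in Lingo3-/- and 91.8 to 109 CPM in wild type, with no overlap. Capn8 and Gata6, which were not called, had log2 fold changes of 0.19 and 0.062 (adjusted p = 0.210 and 0.705 by edgeR). Gkn2, Muc5ac, Sox2, Cldn18 and Barx1, defining genes of the stomach, had 0 counts in all 6 libraries.

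Because CD177 and CRISP3 are known from neutrophils, 17 neutrophil markers were read in the same libraries. Their summed level was 30.6 to 38.3 CPM in Lingo3-/- and 37.4 to 88.1 CPM in wild type, and the groups overlapped. Ly6g and Itgam were named after their values were seen. Without them the other 15 markers summed to 1.17 to 3.30 CPM in Lingo3-/- and 4.02 to 4.77 CPM in wild type. These ranges did not overlap, but the 2 genes were set apart after their values were seen, so the split is a description only. Of the 17 markers 13 did not pass the filter on low counts. Mpo, Elane and Cebpe, which are transcribed mainly in granulocyte precursors of the marrow, had 0 counts in all 6 libraries, while S100a8, a marker of mature neutrophils, had 6, 1 and 1 counts in Lingo3-/- and 10, 26 and 27 counts in wild type. Of 4 tested markers none rose and S100a9, an inflammatory calcium-binding protein, fell, where 9.43% of all genes tested rose and 5.97% fell. S100a9 had 6, 3 and 1 counts in Lingo3-/- and 23, 34 and 38 counts in wild type (adjusted p = 0.00315 by edgeR). Without Lingo3-/- replicate 2, 1 marker, Itgam, was higher (adjusted p = 0.0212 by edgeR). Without Lingo3-/- replicate 1 or wild type replicate 1, 2 markers were lower. Ly6g, a neutrophil surface marker, had 13.2, 29.7 and 29.2 CPM in Lingo3-/- and 78.5, 27.6 and 27.7 CPM in wild type (adjusted p = 0.384 by edgeR). Itgam had 14.1, 4.40 and 7.60 CPM in Lingo3-/- and 5.61, 5.13 and 5.33 CPM in wild type. Its log2 fold change was 0.71 (adjusted p = 0.270 by edgeR).

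**Figure D5:**
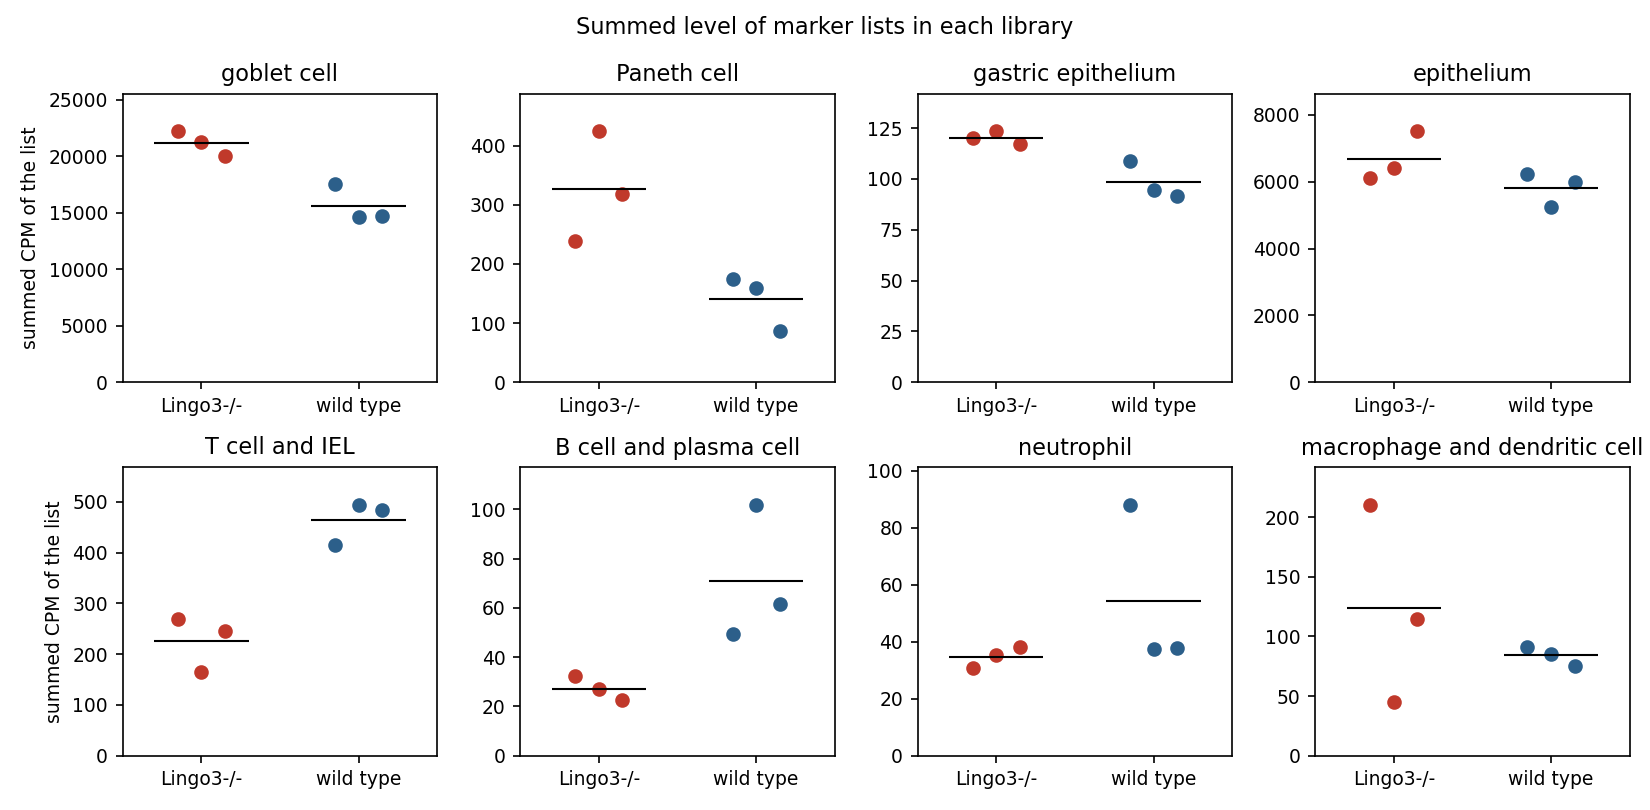
Summed CPM of 8 gene lists in each library, Lingo3-/- left of wild type, with a line at the group mean (IEL, intraepithelial lymphocyte). T cell sums are lower in Lingo3-/- (164 to 270 CPM) than in wild type (414 to 494 CPM), and neutrophil sums, which are mostly Ly6g and Itgam, overlap.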

How the data were processed

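RNA-seq counts of 6 libraries, 3 from Lingo3-/- and 3 from wild type colon epithelial fractions, were used. Per the labels' protocols, total RNA went into a stranded TruSeq kit after Ribo-Zero Gold depletion. Per the submitters' processing notes, reads were handled with Trimmomatic 0.39 and the tools STAR, HTSeq and DESeq2 on GRCm38. Their versions and the strand setting of the counting were not found in the labels. The authors deposited raw counts per gene. Their deposited comparison table holds log2 fold changes, p-values, a test statistic (score) and normalized values (signal), and the log2 fold changes, their errors, the adjusted p-values (to pick the genes ranked by fold change) and ranks by the statistic were used, descriptively. HTSeq summary lines, 53.6 to 57.0% of reads in Lingo3-/- and 56.6 to 60.1% in wild type, were left out of library sizes.

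Genes passed filterByExpr (minimum count 10, total 15), were scaled by TMM factors and tested with edgeR 4.0.16 (robust quasi-likelihood, 2-sided, Benjamini-Hochberg over 16856 genes, threshold 0.05) in R 4.3.3, with genotype as the only term; log2 CPM used a prior count of 2. CPM uses effective library sizes. The method was tested on simulated data. The members and the gene lists were chosen with earlier results of these data known. The text names the members and the 3 nearest profiles of each. From each list it names up to 4 genes past the test and up to 2 others of the highest mean CPM. List members at or near 0 counts are named too. Among the neighbours it names those past the test, with Psmd10 and Atg4a, and gives the others as counts and a range. Symbols were looked up in GENCODE M21 and RefSeq. Similar transcripts were found with blastn. Alternatives were RLE, upper-quartile or no factors, DESeq2 1.42.0, no count filter, a minimum mean CPM of 1, nuclear protein-coding genes only, thinned counts, the replicate number as a block and each library left out.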

Additional observations from a re-analysis of the deposited data

How the results depend on the processing

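The 4 members kept their direction under all 15 alternatives, which reuse the counts they were chosen from, so this is no test of their rise. Library totals alone gave 5415 genes higher and 420 lower, 10 relatives and 26 genes of the goblet, Paneth, interleukin, gastric and partner lists higher, and 6 neighbours higher and 0 lower. Without the filter 1675 genes were lower, 5 relatives were higher and 7 lower, and 6 neighbours were lower. DESeq2, upper-quartile factors and nuclear protein-coding genes only each gave 5 relatives lower, DESeq2 gave 6 neighbours lower, and thinned counts gave 1 relative higher. Without single libraries 711 to 1677 genes were higher and 413 to 1070 lower (898 and 473 when Lingo3-/- replicate 2 was left out, 711 and 413 for Lingo3-/- replicate 3, while leaving out wild type replicate 2 gave 581 lower and wild type replicate 3 gave 936 higher), relatives were 0 to 3 higher and 1 to 4 lower, those lists 9 to 15 higher and 2 to 3 lower, and neighbours 1 to 2 higher and 0 to 3 lower. With the replicate block 1193 genes were higher and 868 lower, 4 relatives were higher and 2 lower, and 1 neighbour was higher and 3 were lower. Same-numbered libraries had correlations of -0.01, -0.12 and -0.10 of their deviations from the group means, so the numbers were not taken to pair libraries. Some genes that did not pass the test turned round in sign. With library totals alone the log2 fold change was 0.26 for Atg4a, 0.17 for Cxadr, 0.16 for Lypd8 and 0.16 for Tjp1. With upper-quartile factors it was -0.0078 for Gata6, -0.031 for Gpa33, -0.049 for Psmd10 and -0.056 for Zg16, and with nuclear protein-coding genes only -0.014 for Psmd10 and -0.022 for Zg16. With a mean CPM of at least 1 it was -0.0066 for Zg16. Without single libraries it ran from -0.055 to 0.071 for Atg4a, -0.19 to 0.035 for Cxadr, -0.040 to 0.21 for Gpa33, -0.22 to 0.070 for Lypd8, -0.22 to 0.0064 for Tjp1 and -0.22 to 0.24 for Zg16. Library totals alone also ended the calls of CT010467.1, Il4ra, Ly9 and Slamf7, thinned counts those of Cbr2, Cd59a and Vsig2, and upper-quartile factors that of Ly6e. The cause was not tested. The low counts of Vsig1 and Crisp3 limit their precision.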
